A study of Homo sapiens with 9 samples.

Results

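The transcription factor p53 is activated by DNA damage and other stresses and switches on genes that arrest the cell cycle, repair DNA or kill the cell. Several of its targets feed back on it: MDM2 and MDM4 bind p53 and hold it down, and the phosphatase PPM1D (Wip1) removes the phosphate groups that activate it. SKOV3, the ovarian cancer cell line used here, is widely described as lacking functional p53, and many of these genes are also driven by other stress factors such as ATF4. The 9 genes described are the feedback regulators MDM2, MDM4 and PPM1D and the stress-response targets TP53INP1, SESN1, SESN2, BTG2, ZMAT3 and GDF15. They were chosen by symbol, and they are 9 of the 58735 genes counted.

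RNA was sequenced from SKOV3 cells expressing either WT CDK9 or CDK9 with tyrosine 19 replaced by phenylalanine (Tyr19Phe CDK9), the residue that the kinase ALK phosphorylates. The paper describes stable lines re-expressing these forms in CDK9-depleted cells, and FLAG-tagged CDK9, but restates neither for the sequencing. Another group was WT CDK9 cells treated with an ALK inhibitor for 24 h, whose name and dose for this experiment are not given in the sources used here. Each group had 3 libraries, and nothing states that these came from separate cultures, so p-values measure the spread between the libraries, which may be technical. WT and Tyr19Phe CDK9 cells are separately made lines, so the effect of the mutation and a difference between lines cannot be told apart. The study asked how the loss of Tyr19 phosphorylation, by inhibitor or by mutation, changes transcription.

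The WT CDK9 libraries held 18939449 to 19731228 counts, the inhibitor libraries 18169050 to 20974903 and the Tyr19Phe CDK9 libraries 26485891 to 29320184. Levels are given as CPM, a gene's count relative to the total of its library after TMM scaling, and a floor of 3 counts equals 0.102 to 0.165 CPM, a limit that covers counting error only. Inhibitor replicate 2 (19944 genes with a count, against 21911 and 21915) and Tyr19Phe replicate 3 (20635, against 22609 and 22744) had fewer genes detected than the others of their groups, and the former also stood apart from all other libraries on the second principal component, so the 9 genes were also examined without them. WT replicate 3 stood apart on the third component (-44.8, the others -9.49 to 16.8). It was left out only in the fits that leave out each library in turn. Of 7 ovarian carcinoma markers, ERBB2, KRT7, KRT8 and PAX8 were at 257 CPM or more in every library and KRT18 at 129 to 184 CPM, whereas EPCAM was at 9.72 to 23.0 CPM and WT1 at 0.359 to 2.78 CPM. Summed markers of blood stayed at or under 0.717 CPM and those of endothelium at or under 1.39 CPM. Summed fibroblast markers, nearly all COL1A1, were 103 to 107 CPM in WT CDK9, 115 to 149 CPM after the inhibitor and 30.4 to 45.4 CPM in Tyr19Phe CDK9 cells, with COL3A1 and DCN at 4 counts or fewer. The part of this difference in the results was not tested. The mean level of CDK9 itself was 48.6 ± 1.03 CPM with WT CDK9, 45.6 ± 1.77 CPM after the inhibitor and 55.0 ± 3.94 CPM with Tyr19Phe CDK9 (SD, n = 3), and neither difference from WT CDK9 cells passed the test (edgeR, adjusted p = 0.665 and 0.106). CDK9 was higher in Tyr19Phe CDK9 than in inhibitor-treated cells (log2 fold change 0.27, SE 0.08, adjusted p = 0.0096). The groups did not overlap in any comparison, with the inhibitor libraries below and the Tyr19Phe CDK9 libraries above those of WT CDK9. Against WT CDK9 that held for 19.6% of all tested genes after the inhibitor and for 32.6% in Tyr19Phe CDK9 cells. Counts per gene cannot tell RNA of the cells' own CDK9 from RNA of the introduced CDK9.

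A single member, SESN2, differed between the groups by the test, and it was higher in Tyr19Phe CDK9 cells. Its promoter is therefore shown beside those of MDM2 and SESN1, the members whose promoters came closest to the p53 response element apart from GDF15, which was hardly detected. The sequences are from RefSeq (GRCh38.p14), each running from 250 bases before to 50 bases after an annotated start and written 5′ to 3′ on the gene's strand. In SESN2 (chr1:28259268-28259567, plus strand) capitals mark the motif CCAAT, read on both strands. In MDM2 (chr12:68808767-68809066, plus strand, annotated start 3) and SESN1 (chr6:109008939-109009238, minus strand, annotated start 3) they mark the closest match to the p53 response element without a spacer.
SESN2: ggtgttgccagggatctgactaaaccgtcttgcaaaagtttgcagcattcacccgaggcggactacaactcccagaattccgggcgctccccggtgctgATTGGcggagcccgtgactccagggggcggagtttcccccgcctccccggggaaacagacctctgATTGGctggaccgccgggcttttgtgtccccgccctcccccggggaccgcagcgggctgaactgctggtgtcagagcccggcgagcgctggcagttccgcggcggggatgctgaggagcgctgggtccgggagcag
MDM2: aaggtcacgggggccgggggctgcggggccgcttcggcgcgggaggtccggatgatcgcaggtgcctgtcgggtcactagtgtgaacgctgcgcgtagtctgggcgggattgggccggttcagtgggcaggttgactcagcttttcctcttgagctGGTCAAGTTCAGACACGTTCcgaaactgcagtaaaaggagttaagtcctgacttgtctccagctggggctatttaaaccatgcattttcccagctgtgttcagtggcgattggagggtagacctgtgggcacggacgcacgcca
SESN1: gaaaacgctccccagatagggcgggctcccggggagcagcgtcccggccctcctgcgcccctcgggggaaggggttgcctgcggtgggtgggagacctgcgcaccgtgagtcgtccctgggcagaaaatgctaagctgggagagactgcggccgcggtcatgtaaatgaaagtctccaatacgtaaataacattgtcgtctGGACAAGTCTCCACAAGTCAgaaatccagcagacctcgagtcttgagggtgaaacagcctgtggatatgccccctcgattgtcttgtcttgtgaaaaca
The marked stretch of MDM2 differed from the element at 2 positions, and 0.649% of 35116 RefSeq promoters held a match with as few mismatches. For SESN1 and for GDF15 the closest match had 3 mismatches, which 5.2% of promoters reached. BTG2, PPM1D and ZMAT3 had 4 mismatches (26.0% of promoters). SESN2 and MDM4 had 5, as many as 70.5% of promoters allow. MDM2, SESN1 and ZMAT3 have several annotated starts, and the values above are those of their closest start. Starts 1 and 2 of MDM2 and of SESN1 had 5 mismatches as well, and start 2 of ZMAT3 had 6 (97.4% of promoters). The shares count single promoters, so genes with more starts had more windows in which to come close. CCAAT occurs 2 times in the SESN2 promoter, but also 2 times at each MDM2 start. It occurs 1 time in BTG2, PPM1D, GDF15, start 1 of ZMAT3 and starts 2 and 3 of SESN1. At least 1 CCAAT is in 34.6% of all promoters, so it does not set SESN2 apart. The motif TGATGNAA, to which ATF4 and its partners bind, was searched on both strands and is in none of the promoters examined for these genes and in 3.62% of all promoters. TGACGTCA was found in PPM1D, and in 1.85% of all promoters. These are letters in a window and not evidence of binding.

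Of the 9 genes, 8 passed the expression filter. GDF15 (chr19:18374731-18389176), a secreted stress cytokine of the TGF-beta family, did not. It had 0, 6 and 0 counts in the WT CDK9 libraries, 0, 7 and 5 counts after the inhibitor and 4, 14 and 0 counts in Tyr19Phe CDK9 cells. All groups contained libraries without a count, so no fold change is given.

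In WT CDK9 cells the levels per kilobase of listed gene length were 3.77 ± 0.118 CPM per kb for MDM2, 3.65 ± 0.373 for PPM1D, 3.49 ± 0.136 for ZMAT3 and 3.41 ± 0.149 for TP53INP1 (SD, n = 3). Below them came SESN2 at 2.93 ± 0.0921, SESN1 at 2.49 ± 0.397, MDM4 at 2.44 ± 0.149 and BTG2 at 0.742 ± 0.236 CPM per kb. Neighbours in this order differed by less than the sum of their SDs, except TP53INP1 from SESN2 and MDM4 from BTG2. Apart from BTG2 and GDF15, the genes thus lay between 2.44 and 3.77 CPM per kb in WT CDK9 cells. The listed length may differ from that of the transcripts expressed, so the order between genes is approximate.

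**Figure D1:**
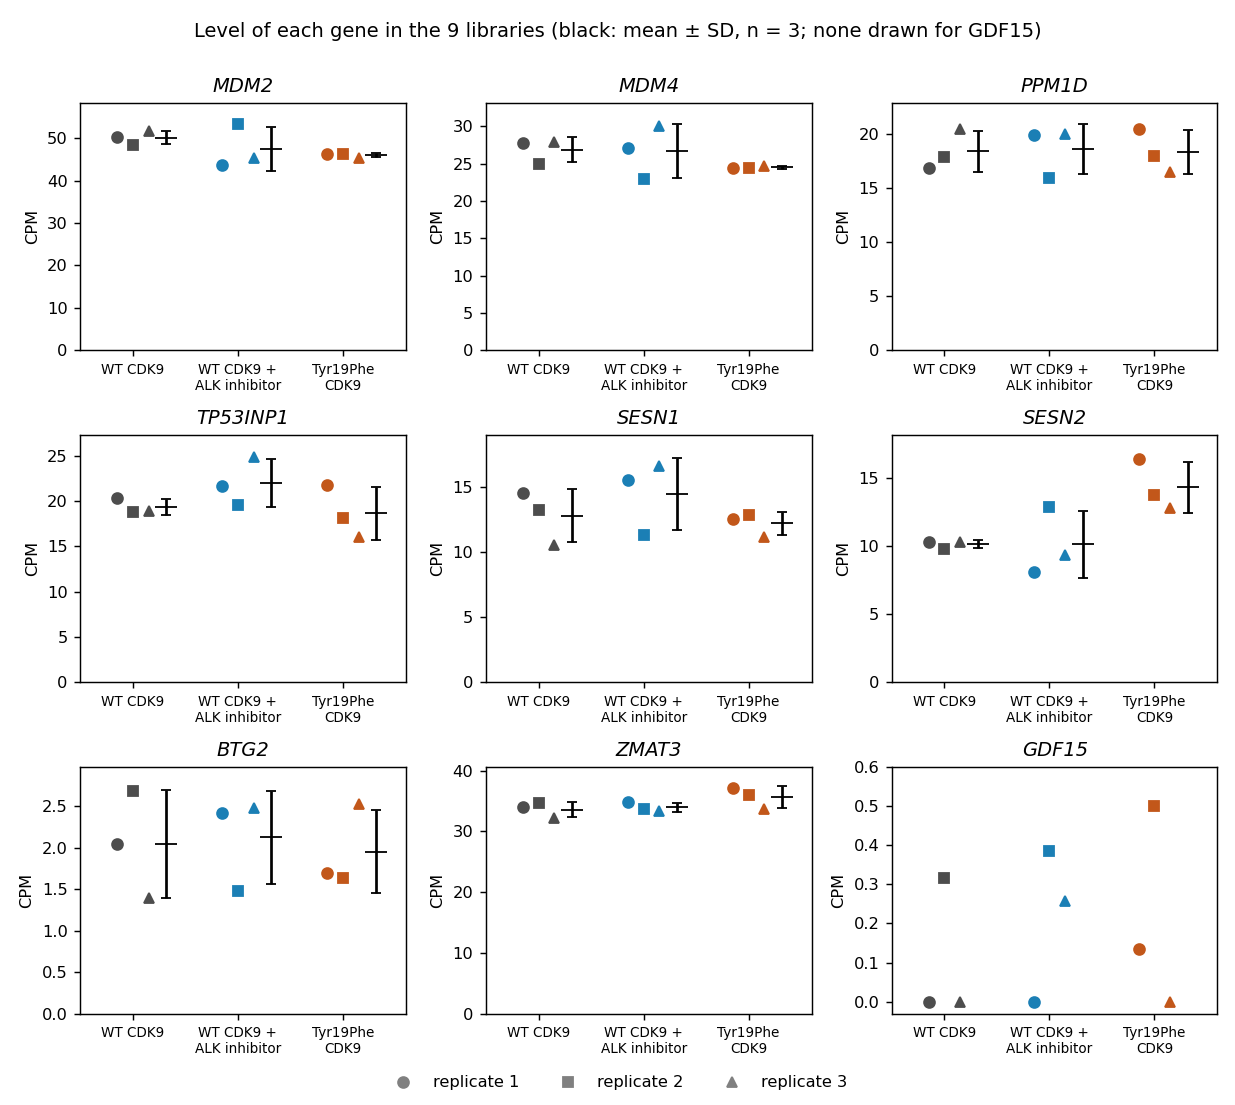
Level of each of the 9 genes in CPM (vertical axes, linear) in the 3 WT CDK9 libraries, the 3 libraries of WT CDK9 cells with the ALK inhibitor and the 3 Tyr19Phe CDK9 libraries. Symbols are libraries and black bars are the mean ± SD. The 3 Tyr19Phe CDK9 libraries lie above the WT CDK9 libraries for SESN2, at 12.8 to 16.4 CPM, and below them for MDM2 and MDM4.

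The feedback regulators come first. MDM2 (chr12:68808176-68850686) is the ubiquitin ligase that marks p53 for degradation. It was at 50.2, 48.4 and 51.6 CPM in the WT CDK9 libraries, 43.7, 53.4 and 45.4 CPM after the inhibitor and 46.2, 46.3 and 45.4 CPM in Tyr19Phe CDK9 cells. All Tyr19Phe CDK9 libraries lay below all WT CDK9 libraries, whereas the inhibitor libraries spread across both, with replicate 2 the highest of the 9. The log2 fold change was -0.12 (SE 0.08, adjusted p = 0.338) in Tyr19Phe CDK9 and -0.08 (SE 0.08, adjusted p = 0.753) after the inhibitor, so neither passed the test. The 95% interval in Tyr19Phe CDK9 cells ran from -0.29 to 0.04. Without inhibitor replicate 2 the inhibitor value was -0.17, also not called (adjusted p = 0.421). A neighbouring gene on the opposite strand covers 20.0% of MDM2, and since the strandedness of the counting is not given in the sources used here, its reads cannot be told apart there.

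MDM4 (chr1:204516379-204558120), the MDM2 relative that masks the activation domain of p53, was at 27.8, 25.0 and 27.8 CPM in WT CDK9 cells, 27.1, 22.9 and 30.1 CPM after the inhibitor and 24.4, 24.3 and 24.7 CPM in Tyr19Phe CDK9 cells. As for MDM2, the Tyr19Phe CDK9 libraries lay below all WT CDK9 libraries. Their coefficient of variation, 0.796% for MDM4 and 1.13% for MDM2, was below the 3.82% and 2.78% that counting error alone gives, so the closeness of these libraries is no measure of precision. The log2 fold change of MDM4 was -0.13 (SE 0.11, 95% interval -0.35 to 0.08, adjusted p = 0.447) in Tyr19Phe CDK9 and -0.01 (SE 0.11, adjusted p = 0.987) after the inhibitor.

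PPM1D (chr17:60600183-60666280) was at 16.9, 17.9 and 20.5 CPM in WT CDK9 cells, 19.9, 16.0 and 20.0 CPM after the inhibitor and 20.5, 18.0 and 16.5 CPM in Tyr19Phe CDK9 cells. The 3 groups covered the same range and their means, 18.4, 18.6 and 18.4 CPM, differed by less than the SD of any group. The 95% intervals of the log2 fold changes were -0.24 to 0.28 for the inhibitor and -0.26 to 0.25 for Tyr19Phe CDK9.

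The sestrins are stress-induced proteins that restrain the growth kinase mTORC1, SESN2 as a sensor of leucine. SESN2 (chr1:28259527-28282491) was at 10.3, 9.76 and 10.3 CPM in the WT CDK9 libraries, 8.12, 12.9 and 9.35 CPM after the inhibitor and 16.4, 13.8 and 12.8 CPM in Tyr19Phe CDK9 cells, from 201, 185 and 193, 171, 234 and 181, and 484, 387 and 339 counts. Every Tyr19Phe CDK9 library lay above every WT CDK9 library, and inhibitor replicate 2 lay within the Tyr19Phe CDK9 range while the others of its group were below the WT CDK9 mean. SESN2 rose 1.41-fold in Tyr19Phe CDK9 against WT CDK9 cells (95% interval 1.13 to 1.77, log2 fold change 0.50, SE 0.16, adjusted p = 0.0247). It was also higher in Tyr19Phe CDK9 than in inhibitor-treated cells, 1.42-fold (log2 fold change 0.51, SE 0.16, adjusted p = 0.0204), in a contrast that shares the Tyr19Phe CDK9 libraries with the former. The inhibitor gave a log2 fold change of -0.01 (SE 0.16, 95% interval -0.34 to 0.33, adjusted p = 0.995) against WT CDK9 cells.

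With a library left out, SESN2 was called in 2 of 6 fits against WT CDK9 cells and in 3 of 6 against inhibitor-treated cells. Against WT CDK9 cells the call held without Tyr19Phe replicate 2 (adjusted p = 0.0440) or 3 (adjusted p = 0.0208). It was lost in the other fits, where the adjusted p was 0.0639, 0.0705 and 0.0539 without WT replicate 1, 2 or 3 and 0.149 without Tyr19Phe replicate 1, the highest library, where the log2 fold change was 0.39. Against inhibitor-treated cells the call held without inhibitor replicate 2 (adjusted p = 0.0022) and without Tyr19Phe replicate 2 (adjusted p = 0.0378) or 3 (adjusted p = 0.0179). The adjusted p was 0.148 and 0.0870 without inhibitor replicate 1 or 3 and 0.129 without Tyr19Phe replicate 1. With inhibitor replicate 2 and Tyr19Phe replicate 3 left out together, an alternative chosen after seeing the data, SESN2 differed by 0.58 from WT CDK9 (adjusted p = 0.0088) and by 0.79 from inhibitor-treated cells (adjusted p = 0.0017) on the log2 scale. The direction was higher in Tyr19Phe CDK9 cells in each of these fits. No other gene overlaps SESN2, and the 141 tested genes within 5 Mb of it had a median of 0.03 for Tyr19Phe against WT CDK9 (log2 fold change), with 8 called higher and 10 called lower.

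**Figure D2:**
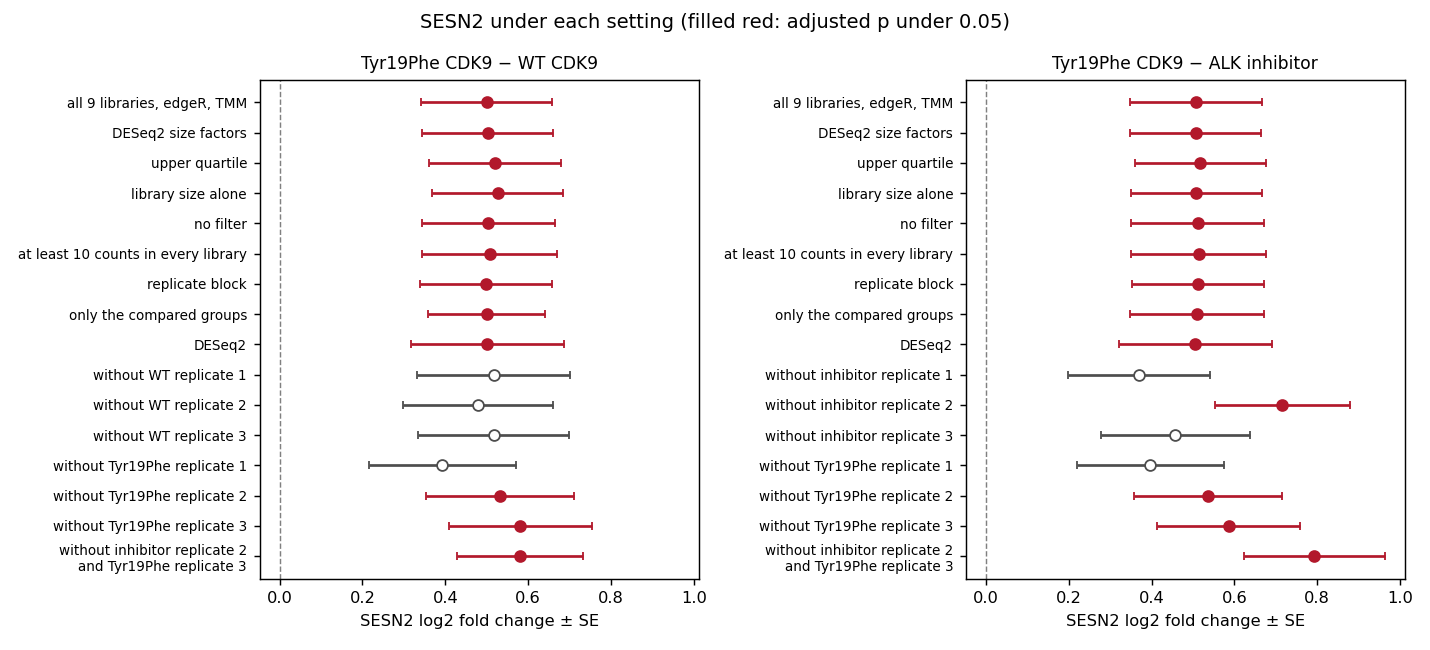
Log2 fold change of SESN2 (horizontal axes) with its SE under each way of processing the counts and with libraries left out, for Tyr19Phe against WT CDK9 (left) and Tyr19Phe CDK9 against the ALK inhibitor (right). All values lie above 0, between 0.37 and 0.79, and those with an adjusted p under 0.05 are filled.

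SESN1 (chr6:108986437-109094819) did not share this pattern. It was at 14.5, 13.2 and 10.5 CPM in WT CDK9 cells, 15.5, 11.3 and 16.6 CPM after the inhibitor and 12.5, 12.8 and 11.2 CPM in Tyr19Phe CDK9 cells. The Tyr19Phe CDK9 libraries lay within the WT CDK9 range, and 2 of 3 inhibitor libraries lay above it. The log2 fold change was -0.07 (SE 0.15, adjusted p = 0.833) in Tyr19Phe CDK9 and 0.18 (SE 0.15, 95% interval -0.13 to 0.50, adjusted p = 0.665) after the inhibitor. Without inhibitor replicate 2 the latter was 0.33 and was not called either (adjusted p = 0.347).

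TP53INP1 (chr8:94925972-94949411) encodes a stress-induced nuclear protein linked to p53-dependent cell death and autophagy. It was at 20.3, 18.8 and 18.9 CPM in WT CDK9 cells, 21.6, 19.6 and 24.9 CPM after the inhibitor and 21.8, 18.1 and 16.0 CPM in Tyr19Phe CDK9 cells. The inhibitor libraries were the highest on average and the Tyr19Phe CDK9 libraries the most spread, but the groups overlapped. The log2 fold change was 0.19 (SE 0.13, adjusted p = 0.549) after the inhibitor and -0.05 (SE 0.12, adjusted p = 0.843) in Tyr19Phe CDK9 cells, and between these groups it was -0.24 (95% interval -0.49 to 0.01, adjusted p = 0.184). NDUFAF6 covers the whole of TP53INP1 on the opposite strand, so its value is uncertain.

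The remaining targets act on RNA. ZMAT3 (chr3:179017223-179072279), a zinc finger protein that binds RNA, was at 34.0, 34.7 and 32.2 CPM in WT CDK9 cells, 34.9, 33.7 and 33.4 CPM after the inhibitor and 37.1, 36.1 and 33.7 CPM in Tyr19Phe CDK9 cells. The groups overlapped, and the log2 fold change was 0.02 after the inhibitor (95% interval -0.17 to 0.20, adjusted p = 0.969) and 0.08 in Tyr19Phe CDK9 cells (95% interval -0.09 to 0.26, adjusted p = 0.586). BTG2 (chr1:203305491-203309602), an antiproliferative protein that recruits the CCR4-NOT deadenylase to mRNA, was at 2.05, 2.69 and 1.39 CPM, 2.42, 1.48 and 2.48 CPM, and 1.69, 1.64 and 2.53 CPM in the same order of groups. Its libraries held 26 to 67 counts, the groups overlapped, and the 95% intervals, -0.74 to 0.86 for the inhibitor and -0.85 to 0.72 for Tyr19Phe CDK9, show that changes within them were not detectable at this depth.

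Counted over the 8 tested genes, the inhibitor gave 0 calls by edgeR, with 0 at an unadjusted p under 0.05 and 0 by DESeq2, where 4.55% of the 16350 tested genes were called (1.82% higher and 2.73% lower). Tyr19Phe against WT CDK9 gave 1 gene called higher, SESN2, and 0 lower, where 18.0% of all tested genes were called (7.61% higher and 10.4% lower). Tyr19Phe CDK9 against the inhibitor gave the same 1 gene higher and 0 lower, where 20.7% were called (9.57% higher and 11.1% lower). In both comparisons 0 members were lower at an unadjusted p under 0.05 by edgeR, and 0 were called lower by DESeq2.

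The groups did not overlap for 0 of 8 genes after the inhibitor (19.6% of all tested genes), for 3 of 8 in Tyr19Phe against WT CDK9 (MDM2, MDM4 and SESN2, against 32.6%) and for 0 of 8 in Tyr19Phe CDK9 against the inhibitor (34.4%). The size of the log2 fold change, without its sign, had a median of 0.04 over the 8 genes after the inhibitor, where that of all tested genes was 0.13, and of 0.08 in Tyr19Phe CDK9 cells, where that of all tested genes was 0.18. The median signed value was 0.02 after the inhibitor (5 genes above 0, 3 below) and -0.06 in Tyr19Phe CDK9 cells (2 above, 6 below), beside -0.0010 and 0.0035 over all tested genes. Of all tested genes, 49.7% and 50.6% lay above 0.

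**Figure D3:**
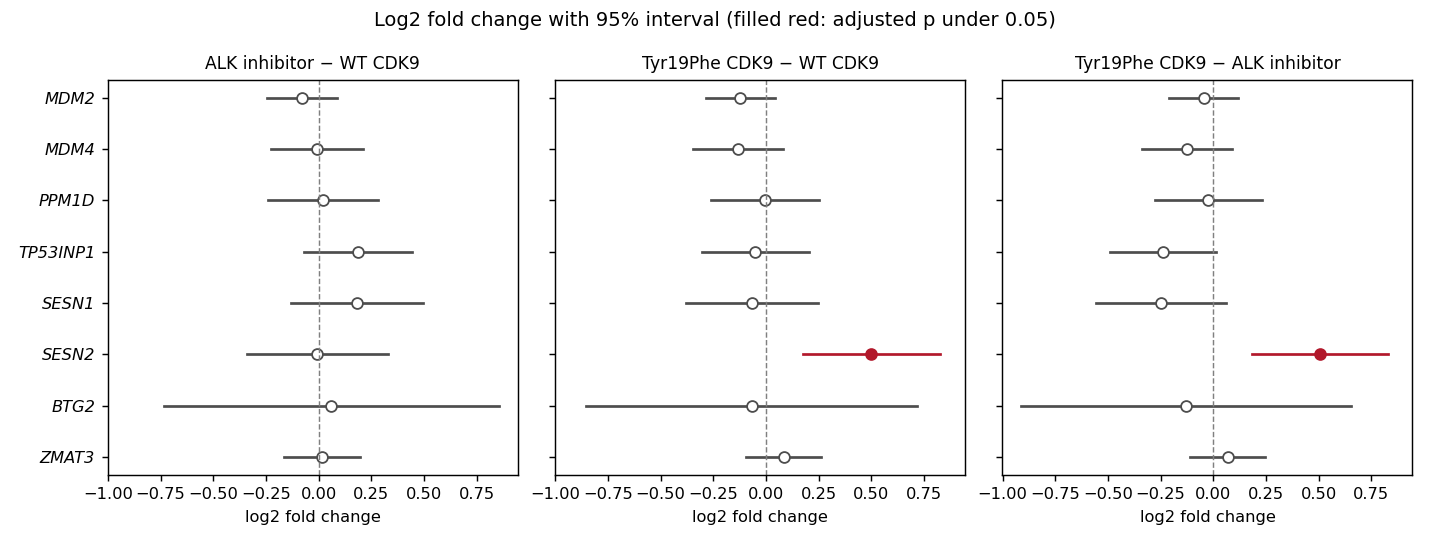
Log2 fold change (horizontal axes) with its 95% interval for the 8 tested genes in the 3 comparisons. SESN2 is the only gene with an adjusted p under 0.05, at 0.50 in Tyr19Phe against WT CDK9 and 0.51 in Tyr19Phe CDK9 against the ALK inhibitor, and the intervals of the other genes include 0.

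Some libraries were the lowest of their group for several of the genes. For each gene some library of a group is the lowest, and these counts carry no test. Inhibitor replicate 2 was the lowest of its group for 5 of the 8 genes (MDM4, PPM1D, TP53INP1, SESN1 and BTG2) and the highest for MDM2 and SESN2, with a median log2 difference of -0.28 from the mean of the other two. Tyr19Phe replicate 3 was the lowest of its group for 6 of the 8, with a median of -0.15. Over all tested genes the same libraries were the lowest of their group for 36.1% and 34.8% of genes. With inhibitor replicate 2 left out, no member was called against WT CDK9 cells.

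**Figure D4:**
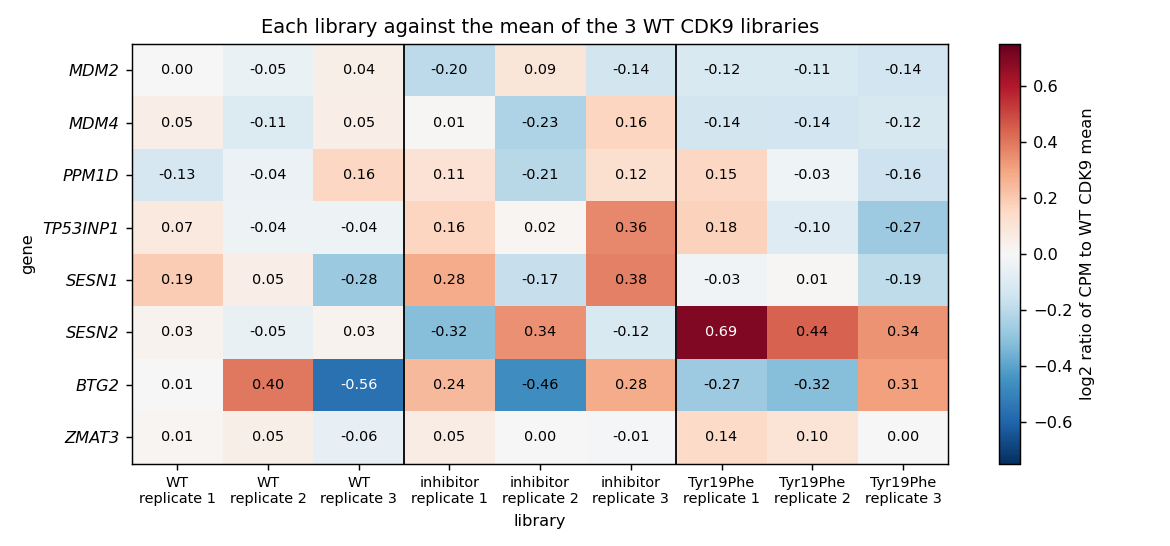
Log2 ratio of the CPM of each library (columns) to the mean of the 3 WT CDK9 libraries for the 8 tested genes (rows), red for higher and blue for lower. SESN2 in Tyr19Phe replicate 1 has the highest value, 0.69, and BTG2, the gene with the fewest counts among the 8, has the lowest, -0.56 in WT replicate 3.

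The genes whose profile over the 9 libraries was nearest to that of SESN2, by the root mean square distance of log2 CPM scaled to an SD of 1, were EDIL3 (0.170), FAM160B2 (0.223) and THNSL1 (0.282), out of 14040 genes compared. Nearest to MDM2 were CHD7 (0.341), PHOSPHO2 (0.370) and GCH1 (0.393). These distances describe 9 libraries that differ in depth and line, and they carry no test.

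The wider p53 programme was described with a list of 101 further target genes, of which 91 were tested. After the inhibitor 1 was called higher and 3 lower (4.4% against 4.55% of all tested genes), and the median log2 fold change was 0.03. In Tyr19Phe CDK9 cells 10 were called higher and 11 lower (23.1% against 18.0%), with a median of 0.11. Of the 91 values 57 lay above 0, as did 50.6% of those of all tested genes. The calls went in both directions in nearly equal number, and in Tyr19Phe CDK9 against the inhibitor they were 13 higher and 9 lower (24.2% against 20.7%). The genes called higher with the smallest adjusted p were GADD45A, a growth arrest and DNA damage gene, SERPINB5 (maspin) and DDIT4, an inhibitor of mTORC1 that is also an ATF4 target. GADD45A was at 128 ± 5.88 CPM in WT CDK9 and 172 ± 13.8 CPM in Tyr19Phe CDK9 cells (log2 fold change 0.42, adjusted p = 1.29e-06), whereas after the inhibitor it was at 112 ± 3.78 CPM (-0.19, adjusted p = 0.0555). SERPINB5 rose by 1.32 on the log2 scale in Tyr19Phe CDK9 cells (adjusted p = 5.24e-06).

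DDIT4 was the only target called higher after the inhibitor. It was at 1.64, 3.69 and 2.03 CPM in WT CDK9 cells, 6.74, 4.45 and 3.67 CPM after the inhibitor and 8.70, 11.1 and 6.90 CPM in Tyr19Phe CDK9 cells. The inhibitor libraries overlapped the WT CDK9 range at its top, and the Tyr19Phe CDK9 libraries lay above both. Its log2 fold change was 1.02 after the inhibitor (SE 0.28, adjusted p = 0.0253) and 1.86 in Tyr19Phe CDK9 cells (SE 0.27, adjusted p = 3.74e-06). The former was called in 3 of 6 fits with a library left out, where its adjusted p reached 0.236, and the latter in 6 of 6. Lower after the inhibitor were EPS8L2, an actin regulator (-0.37, adjusted p = 2.60e-08), the kinase PLK2 (-0.36, adjusted p = 3.00e-08) and the adaptor TRAF4 (-0.46, adjusted p = 0.0025). EPS8L2 (-0.15, adjusted p = 0.0058) and PLK2 (-0.13, adjusted p = 0.0156) were also called lower in Tyr19Phe against WT CDK9 cells. TRAF4 was at -0.26 there and was not called (adjusted p = 0.0505). Lower in Tyr19Phe CDK9 cells with the smallest adjusted p were the carboxylesterase CES2 (-0.48, adjusted p = 3.03e-09), CYFIP2 (-0.68, adjusted p = 6.56e-08) and the chaperone HSPA4L (-0.87, adjusted p = 4.60e-07), whose 20 tested neighbours within 5 Mb had a median of -0.23.

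Proteins that act on p53 were described with a list of 30 further regulators and relatives, 28 of them tested. After the inhibitor 1 was called higher and 3 lower (14.3% against 4.55%), and in Tyr19Phe CDK9 cells 1 was higher and 11 lower (42.9% against 18.0%), and the median value was -0.11 on the log2 scale. In Tyr19Phe against WT CDK9, every list described here had a larger share called than all tested genes had. With only genes of at least 10 counts in every library tested, 22.1% were called. A share above 18.0% therefore does not set a list apart. HIPK2, a kinase that phosphorylates p53 after damage, moved in opposite directions. It was at 259, 262 and 269 CPM in WT CDK9 cells, 332, 333 and 327 CPM after the inhibitor and 181, 185 and 181 CPM in Tyr19Phe CDK9 cells, with no overlap between any of the groups. It rose by 0.33 on the log2 scale after the inhibitor (SE 0.04, adjusted p = 9.28e-07) and fell by 0.53 in Tyr19Phe CDK9 cells (SE 0.04, adjusted p = 1.97e-11), and the direct contrast between these was -0.86 (adjusted p = 1.02e-16). Each of these calls held in 6 of 6 fits with a library left out.

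PPP1R13L (iASPP), an inhibitor of p53, showed the reverse order. It was at 91.3 ± 2.69 CPM in WT CDK9 cells, 79.0 ± 5.50 CPM after the inhibitor and 128 ± 4.26 CPM in Tyr19Phe CDK9 cells. The fall of 0.21 after the inhibitor (log2 fold change -0.21, adjusted p = 0.0447) was called in 1 of 6 fits with a library left out, with an adjusted p of up to 0.283, and the rise of 0.48 in Tyr19Phe CDK9 cells (adjusted p = 2.24e-07) in 6 of 6. Lower in both comparisons were PRKDC, the catalytic subunit of DNA-PK (-0.17 after the inhibitor, adjusted p = 0.0057, and -0.46 in Tyr19Phe CDK9, adjusted p = 2.19e-10), and the nucleolar protein NPM1 (-0.17, adjusted p = 0.0015, and -0.14, adjusted p = 0.0058). PRKDC after the inhibitor was called in 4 of 6 fits with a library left out. HUWE1, a ubiquitin ligase, was lower in Tyr19Phe CDK9 cells (-0.36, adjusted p = 1.73e-07), with -0.07 after the inhibitor (adjusted p = 0.528). The lowest value of the list belonged to TP73, the p53 relative, which was named after its values were seen. It had 32, 13 and 20 counts in WT CDK9 libraries, 24, 32 and 22 counts after the inhibitor and 4, 4 and 0 counts in Tyr19Phe CDK9 cells, which gave a fitted value of -3.51 on the log2 scale (adjusted p = 0.0014) whose size at these counts depends on the prior count.

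**Figure D5:**
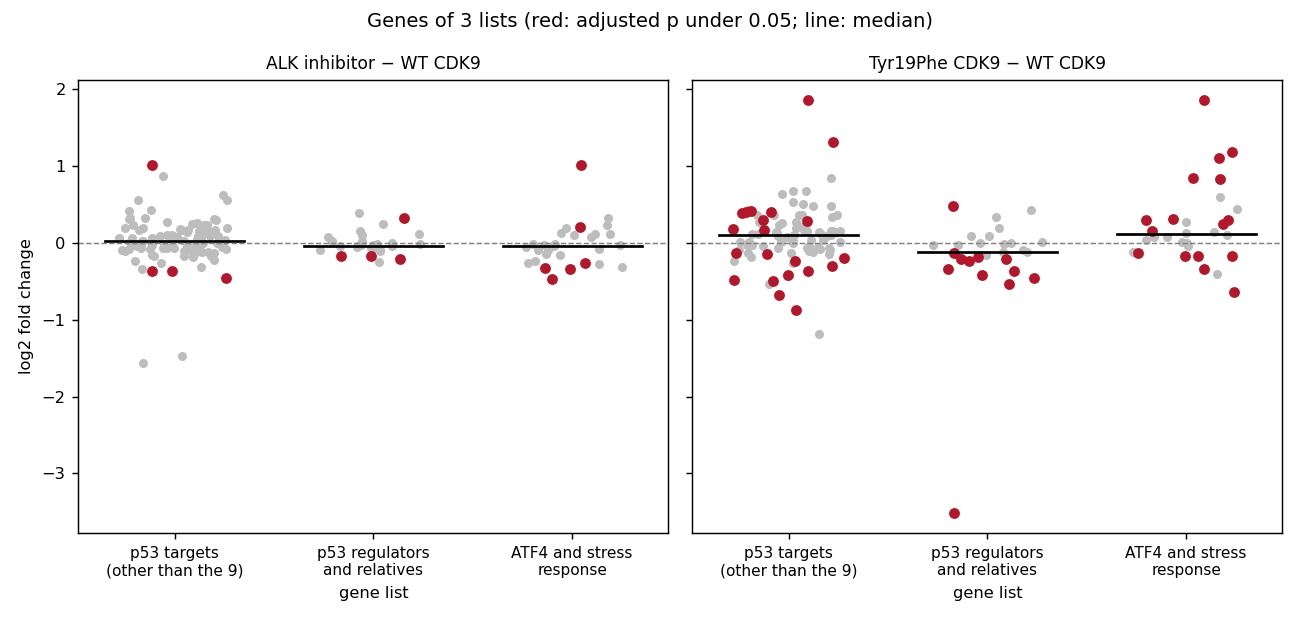
Log2 fold change (vertical axis) of each tested gene of 3 lists, the 91 further p53 targets, 28 p53 regulators and relatives and 30 ATF4 and stress response genes, after the ALK inhibitor (left) and in Tyr19Phe CDK9 cells (right). Red points have an adjusted p under 0.05 and lines are medians. Points at 1.86 in both outer lists on the right are DDIT4, which belongs to both, and the point at -3.51 is TP73.

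The transcription factor ATF4 drives SESN2 and other genes of the integrated stress response and amino acid supply. Of 30 such genes tested, 2 were called higher and 4 lower after the inhibitor (20.0% against 4.55%), and 10 higher and 6 lower in Tyr19Phe CDK9 cells (53.3% against 18.0%), where the median was 0.12 on the log2 scale. TRIB3, a pseudokinase, was at 21.7 ± 1.18 CPM in WT CDK9, 18.0 ± 1.85 CPM after the inhibitor and 38.6 ± 2.21 CPM in Tyr19Phe CDK9 cells, a rise of 0.83 in the latter (adjusted p = 2.24e-07). PHGDH, which starts serine synthesis, fell by 0.34 after the inhibitor (adjusted p = 0.0243) and rose by 0.84 in Tyr19Phe CDK9 cells (adjusted p = 1.23e-08). The cystine transporter SLC7A11 went the other way, 0.21 after the inhibitor (adjusted p = 9.21e-04) and -0.64 in Tyr19Phe CDK9 cells (adjusted p = 1.39e-13). The leucine transporter SLC7A5 was lower in both, -0.47 (adjusted p = 8.84e-13) and -0.18 (adjusted p = 5.75e-05). In Tyr19Phe CDK9 against the inhibitor, 16 genes of the list were higher and 3 lower (63.3% against 20.7%). Of the 30 values 23 lay above 0, as did 50.3% of those of all tested genes. The 16 became 10 without inhibitor replicate 3, and the 3 became 1 without inhibitor replicate 1 or Tyr19Phe replicate 3. A part of ATF4 in the SESN2 values was not tested.

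The partners through which these proteins act were counted in the same way. Of 36 tested genes of the mTORC1 and AMPK pathway around the sestrins, 1 was called higher and 0 lower after the inhibitor (2.78% against 4.55%), the former being DDIT4, and 6 were higher and 5 lower in Tyr19Phe CDK9 cells (30.6% against 18.0%). Among the latter, the mTORC1 subunits RPTOR (-0.28, adjusted p = 0.0039), MLST8 (-0.29, adjusted p = 0.0068) and MTOR (-0.18, adjusted p = 0.0078) were lower, and the mTORC1 substrate EIF4EBP1 was higher (0.46, adjusted p = 2.09e-04). Of 18 genes of the CCR4-NOT deadenylase and its partners around BTG2, 1 was higher and 1 lower after the inhibitor (11.1% against 4.55%), and 2 were higher and 4 lower in Tyr19Phe CDK9 cells (33.3% against 18.0%). The scaffold CNOT1 was lower in the latter (-0.24, adjusted p = 8.71e-05) and the BTG2 relative TOB2 was higher in both (0.25, adjusted p = 0.0104, called in 4 of 6 fits with a library left out, and 0.35, adjusted p = 4.75e-05), with a median of 0.21 among its neighbours within 5 Mb in Tyr19Phe CDK9 cells. Of 11 tested family members of the 9 genes, TOB2 was the 1 called after the inhibitor (9.09% against 4.55%), and TOB2, BTG3 (-0.35, adjusted p = 0.0020, with a median of -0.32 among its 11 neighbours) and PPM1A (-0.15, adjusted p = 0.0484) were called in Tyr19Phe CDK9 cells (27.3% against 18.0%). PPM1A was called in 1 of 6 fits with a library left out, with an adjusted p of up to 0.326, and in 3 of 9 other alternatives. Immediate early genes, a set induced by signalling kinases that includes some p53 targets, had 4 called higher and 3 lower of 22 after the inhibitor (31.8% against 4.55%) and 7 higher and 5 lower in Tyr19Phe CDK9 cells (54.5% against 18.0%). Their best-supported genes included KLF6 (0.43, adjusted p = 1.75e-08) and DUSP5 (-0.77, adjusted p = 2.06e-08) in Tyr19Phe CDK9 cells and JUNB (0.46, adjusted p = 2.10e-05) and CYR61 (-0.50, adjusted p = 3.66e-10) after the inhibitor.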

How the data were processed

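Gene-level RNA-seq counts of 9 SKOV3 libraries were used, grouped by the deposited labels into WT CDK9, WT CDK9 with ALK inhibitor and Tyr19Phe CDK9, with 3 libraries each. A company made and sequenced the libraries. The authors deposited raw counts per gene, without normalization. The submitters' processing notes name CASAVA, HISAT2 2.0.5, featureCounts 1.5.0-p3 and hg38 (GRCh38). The annotation release and strandedness are not given in the sources used here. Positions are those of the deposited table.

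The tools were edgeR 4.0.16, limma 3.58.1 and DESeq2 1.42.0 (R 4.3.3) for the tests, and numpy 2.4.6, matplotlib 3.10.9 and pandas 2.3.3 (Python 3.11.15) for tables and plots. Of all genes, 16350 passed filterByExpr (minimum count 10, minimum total 15). The quasi-likelihood test of edgeR was run with all 9 libraries in 1 fit and the 3 groups as means, after TMM scaling (factors 0.986 to 1.01). P-values are two-sided, the Benjamini-Hochberg adjustment covers every tested gene, and calls were made at an adjusted p under 0.05. Both comparisons with WT CDK9 share its libraries. Intervals are 95% intervals of the log2 fold change. Library totals were 18169050 to 29320184 counts. The edgeR fit was run on counts simulated from its own model, with changes added in the inhibitor group only. That checks the code and says nothing about single calls. Promoters and motifs came from RefSeq (GRCh38.p14), and TP53INP1 is left out of them.

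The alternatives were DESeq2 with its own filter, edgeR with DESeq2's scaling, with the upper quartile or with library size alone, no filter, at least 10 counts in every library, only the compared groups, a replicate block, and each library left out. The genes named are the 9 genes, CDK9, from each list up to 3 called genes per direction, taken in order of adjusted p, whose mean level was at least 1 CPM, and the 3 nearest profiles for MDM2 and SESN2. TP73 falls outside this rule. Lists were written by hand and share some genes, DDIT4 being in 3. The 9 genes and the lists were chosen with earlier results of these data known. Not every gene of the p53 pathway is reported here.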

Additional observations from a re-analysis of the deposited data

How the results depend on the processing

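No member changed its call under another scaling, filter or tool, with DESeq2 or with a fit of only the compared groups. For SESN2 the adjusted p over these, the replicate block and the fit without both doubted libraries was 0.0088 to 0.0365 against WT CDK9 and 0.0017 to 0.0331 against the ALK inhibitor. With 1 library left out, the number of members called higher was 0 to 1 in both comparisons of Tyr19Phe CDK9, and the adjusted p for SESN2 was 0.0208 to 0.149 and 0.0022 to 0.148. Deviations from the group means were not shared between libraries of equal replicate number (correlations -0.012 to 0.026), so they were not treated as paired. With the replicate block the adjusted p of SESN2 was 0.0241 and 0.0181 and no member's call changed. Of the alternative values of the log2 fold changes, 315 kept direction and call, 7 lost the call and 38 changed sign, all 38 among values that were not called.

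Sign changes with all libraries were small. On the log2 scale, MDM4 after the inhibitor was 0.0017 with the upper quartile and 0.017 with library size alone, and SESN2 after the inhibitor 0.0029 and 0.018. PPM1D in Tyr19Phe against WT CDK9 was 0.016 with the upper quartile, 0.021 with library size alone and 0.0019 with at least 10 counts in every library. Without inhibitor replicate 2 and Tyr19Phe replicate 3, MDM4 after the inhibitor was 0.091, TP53INP1 and PPM1D in Tyr19Phe against WT CDK9 were 0.052 and 0.071, and MDM2 in Tyr19Phe CDK9 against the inhibitor was 0.059. With 1 library left out, the ranges after the inhibitor were -0.10 to 0.091 for MDM4, -0.21 to 0.13 for SESN2, -0.039 to 0.12 for PPM1D, -0.15 to 0.31 for BTG2 and -0.012 to 0.042 for ZMAT3. In Tyr19Phe against WT CDK9 they were -0.18 to 0.052 for TP53INP1, -0.18 to 0.041 for SESN1, -0.092 to 0.083 for PPM1D and -0.29 to 0.18 for BTG2. Against the inhibitor they were -0.10 to 0.047 for MDM2 and -0.12 to 0.050 for PPM1D.

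Among the further p53 targets, the 1 called higher after the inhibitor became 2 with DESeq2, with each other scaling, with either filter, with the replicate block and without both doubted libraries, and 0 to 2 with 1 library left out. It was 0 without WT replicate 3 or inhibitor replicate 1. The 3 called lower became 5 with DESeq2. In Tyr19Phe against WT CDK9 the 11 called lower were 6 to 11 with 1 library left out, with 7 without WT replicate 2 and 6 without Tyr19Phe replicate 2. In Tyr19Phe CDK9 against the inhibitor, the 13 called higher were 7 to 14 with 1 library left out, 7 of them without inhibitor replicate 2, and 8 without both doubted libraries, and the 9 called lower became 5 in that fit. Among the family members, the 2 called lower in Tyr19Phe against WT CDK9 became 1 in 11 of 15 alternatives. Apart from the losses that follow from fewer samples, the cause was not tested. At these depths GDF15 and BTG2, with 0 to 14 and 26 to 67 counts, allow no firm statement.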
